A study of Mus musculus with 12 samples.

Results

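The genes described here encode the chains of the collagens, the laminins and the integrins, the matrix metalloproteinases and the tissue inhibitors of metalloproteinases (TIMPs). They were taken from the deposited count table by symbol. Every collagen, laminin, integrin alpha or beta, Mmp and Timp symbol followed by a chain number was kept. This gave 102 of 24421 genes, each of which has a RefSeq entry. Integrin alpha chains named with a letter and no number, such as Itgav, were left out. The cells were B16, an established mouse melanoma line, infected with a lentivirus that carried either a non-relevant short hairpin RNA (shControl) or 1 hairpin targeting Elp3 mRNA (shElp3). The Elp3 protein carries the catalytic activity of Elongator, which modifies the wobble uridine of some transfer RNAs. For each hairpin, 3 replicates lettered A, B and C had 1 library of total RNA and 1 library of ribosome-protected fragments (RPF, the pieces of mRNA that ribosomes shield from nuclease), so that 12 libraries fell into 4 groups of 3. The RNA and RPF libraries of 1 hairpin and letter are taken here as 1 culture. Both groups were thus infected and differed in the hairpin; the design has 1 Elp3 hairpin and 1 cell line. The labels do not state how separate the cultures were, so a p-value here sets a difference against the scatter of 3 cultures that may be technical repeats.

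Collagens are triple-helical proteins whose chains assemble into fibrils or into the sheet-like network of the basement membrane. Laminins are trimers of an alpha, a beta and a gamma chain and form the other network of the basement membrane. Integrins, pairs of an alpha and a beta chain in the plasma membrane, bind both kinds of protein, while metalloproteinases cut them and TIMPs block the metalloproteinases. All of them are made on ribosomes of the endoplasmic reticulum, and melanoma cells are known to change several of them as they invade.

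Library totals ran from 7619269 to 16527864 counts. Levels below are CPM, counts scaled to library size with factors from the trimmed mean of M values within RNA or within RPF; they are not divided by transcript length, so they compare libraries and not genes. The letter A library stood apart in 3 of the 4 groups, all but shElp3 RPF: among shControl RNA libraries, Spearman's rho over genes was 0.910 for A with B, 0.904 for A with C and 0.993 for B with C, while in shElp3 RPF these were 0.992, 0.982 and 0.987. Elp3 RNA was 78.7 ± 13.3 CPM in shControl and 37.3 ± 3.42 in shElp3 (SD, n = 3). Its edgeR adjusted p was 0.0831, and 0.000977 with the letter as a block. All 7 melanocyte markers on the list passed the count filter, with a summed RNA level of 8821 to 11767 CPM in shControl and 5865 to 7399 CPM in shElp3. Of the other markers, 2 of 7 fibroblast, 1 of 5 endothelial, 1 of 6 macrophage and 0 of 6 epithelial genes passed.

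A count filter (about 10 counts or more in at least 3 of the 6 libraries of a fraction, of either hairpin) kept 56 of the 102 members in RNA, 46 in RPF and 45 in both. By family, 21 of 44 collagens, 8 of 11 laminins, 10 of 12 integrin alpha chains, 6 of 8 integrin beta chains, 8 of 23 metalloproteinases and 3 of 4 TIMPs passed in RNA. In RPF the numbers were 14, 7, 8, 6, 8 and 3 in the same order. The 45 members that passed in neither fraction had at most 2.38 CPM and 20 counts in any library, and 4 of them, Mmp1a, Mmp1b, Mmp7 and Mmp10, had no count in any of the 12. Itga7 and Lamc3 passed in RNA, and Col18a1 in RPF, with no shControl library at the filter level, so these had to differ. In RNA, Col23a1, Col7a1 and Itga10 reached that level in 1 shControl library but in all 3 of shElp3. Col18a1, Col27a1, Col2a1, Col6a3, Itgb8, Lama3, Lamb3 and Mmp19 reached it in 2 shControl libraries and all 3 of shElp3. All 6 libraries reached it for 41 of 56 members in RNA and 38 of 46 in RPF. A filter met through shElp3 alone favours members that lie higher there, so the counts over members below describe them and support nothing.

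In total RNA, 3 of the 56 members rose in shElp3 and none fell. They were Mmp28, a secreted metalloproteinase also called epilysin, Mmp15, a metalloproteinase anchored in the plasma membrane, and Col18a1, the basement membrane collagen whose C-terminal fragment is endostatin. Over all 12274 genes tested, 0.22% were called higher and 0.921% lower (edgeR adjusted p under 0.05). At an unadjusted p under 0.05, 14 members lay higher and 1, Itgb3, lower, by edgeR, and DESeq2 gave 16 and 1; in either direction 12.4% and 14.2% of all genes passed that threshold. Same-lettered RNA libraries of the 2 hairpins deviated together, although B and C did so across letters as well: shControl B correlated at 0.474 with shElp3 B and at 0.727 with shElp3 C. With the letter as a block 11 of 56 members were called higher and none lower, where 5.46% and 6.75% of all genes were called. The 8 that this added were Col1a1, Itga2, Itga2b, Itga8, Lama5, Lamb1, Lamc3 and Mmp11. Of these, Lamc3 had passed the filter through shElp3 alone. With only letters B and C, 18 of 57 members were called higher and none lower, against 8.88% and 10.5% of all genes.

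The median log2 fold change of the 56 members in RNA was 0.50, and -0.02 over all genes. Of these members 43, or 76.8%, lay above 0, and 48.1% of all genes did. Among the 33 members with a mean of at least 5 CPM, the median was 0.30 and 24 lay above 0. Letter by letter, the median log2 difference of the members was 0.40 for A, 0.49 for B and 0.30 for C. Counted without a model, 19 of 56 members had all 3 shElp3 libraries above all 3 shControl libraries, which 10.2% of all genes did. A single member, Itgb3, had them all below, which 9.56% did. The 19 were 6 of 8 metalloproteinases, 4 of 8 laminins, 4 of 10 integrin alpha chains, 1 of 6 integrin beta chains, 4 of 21 collagens and 0 of 3 TIMPs. Itga7 and Lamc3, both among the 19, had passed the filter through shElp3 alone.

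**Figure D1:**
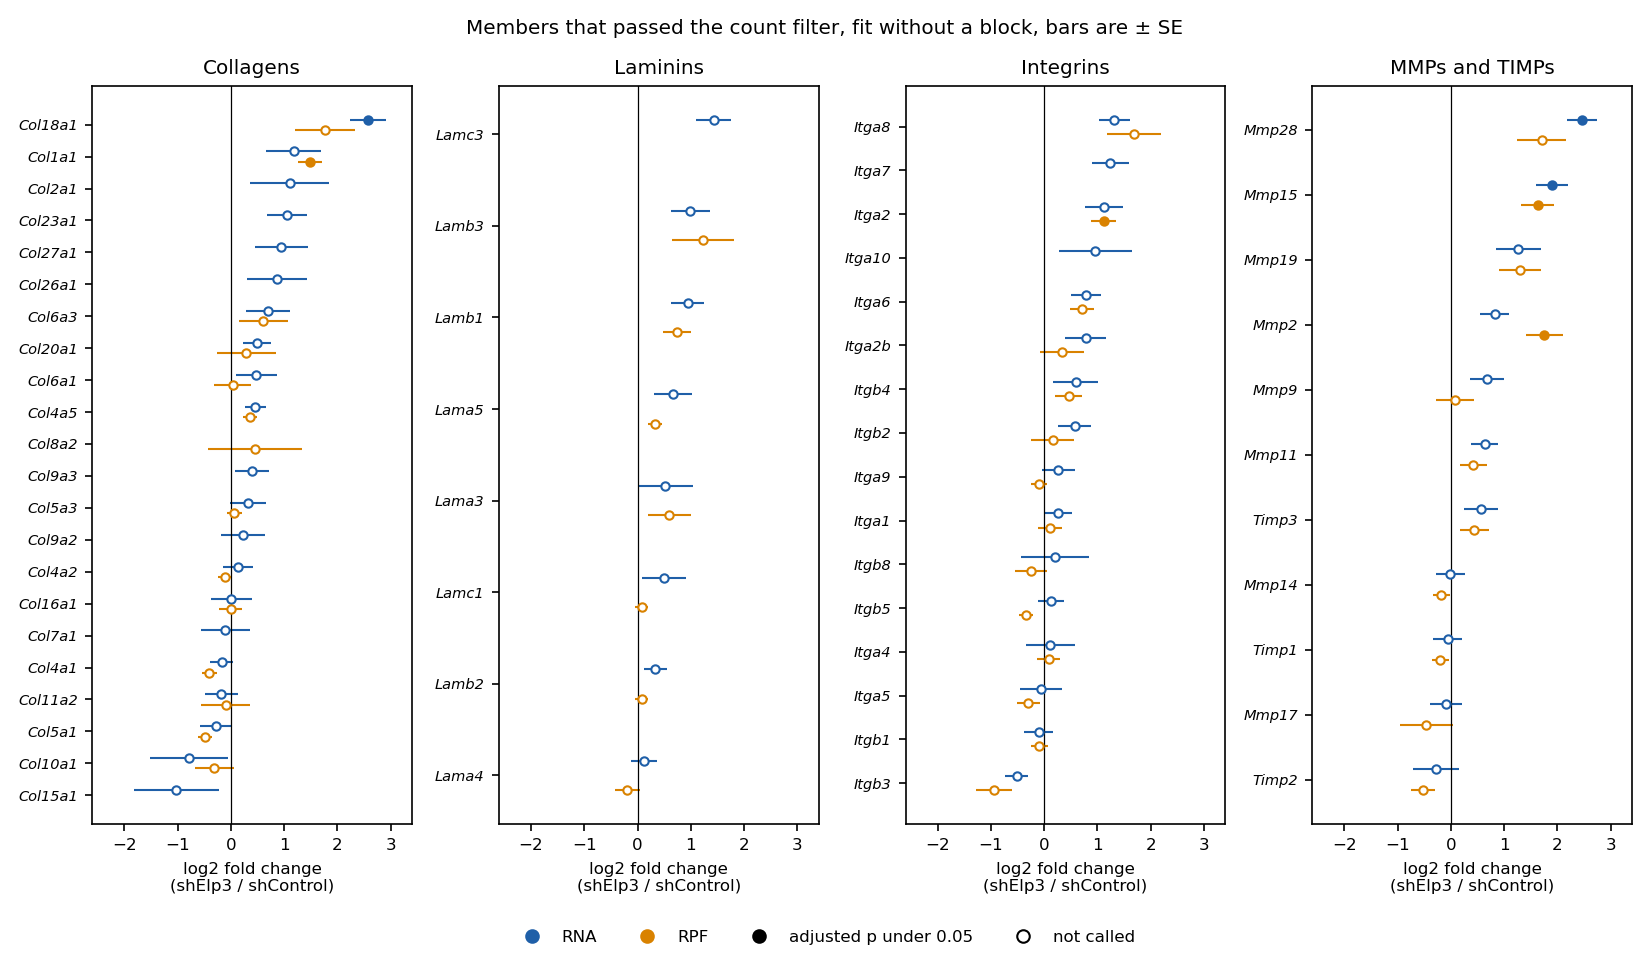
The log2 fold change of shElp3 over shControl (horizontal axis) is plotted for the 57 members that passed the count filter in RNA (blue) or RPF (orange), by family; bars are the standard error and filled points have an edgeR adjusted p under 0.05. Filled points are Mmp28, Mmp15 and Col18a1 in RNA and Col1a1, Itga2, Mmp2 and Mmp15 in RPF, all to the right of 0.

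The promoters of Mmp28, Mmp15 and Col18a1 are shown because these are the 3 members called in RNA without a block. Each sequence is the 250 bases before the RefSeq start on GRCm38.p6, written 5′ to 3′ on the gene's strand, with GC boxes (GGGCGG, or CCGCCC on the other strand) in capitals.
Mmp28 (chr11:83463041-83463290, minus strand): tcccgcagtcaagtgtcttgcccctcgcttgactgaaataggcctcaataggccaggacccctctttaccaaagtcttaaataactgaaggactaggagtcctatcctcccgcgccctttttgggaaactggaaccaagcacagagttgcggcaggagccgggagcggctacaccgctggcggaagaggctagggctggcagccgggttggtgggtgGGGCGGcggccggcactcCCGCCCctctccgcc
Mmp15 (chr8:95352046-95352295, plus strand): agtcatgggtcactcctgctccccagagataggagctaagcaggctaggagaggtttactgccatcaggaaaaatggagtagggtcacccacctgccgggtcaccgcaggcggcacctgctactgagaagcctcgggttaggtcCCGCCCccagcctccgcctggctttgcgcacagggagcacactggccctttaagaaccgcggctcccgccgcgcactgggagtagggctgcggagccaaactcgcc
Col18a1 (chr10:77166531-77166780, minus strand): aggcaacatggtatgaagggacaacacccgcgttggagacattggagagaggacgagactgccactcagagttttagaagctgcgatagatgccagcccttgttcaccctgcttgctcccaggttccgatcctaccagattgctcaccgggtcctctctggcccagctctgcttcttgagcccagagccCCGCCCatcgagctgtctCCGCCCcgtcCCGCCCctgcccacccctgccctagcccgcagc
Mmp28 has 2 boxes, Mmp15 has 1 and Col18a1 has 3, and the second RefSeq start of Col18a1 (chr10:77113706-77113955, minus strand) has 0. Among all RefSeq promoter windows of this length, 32851 in number, 32.7% hold a GC box on either strand, and of the 86 windows that belong to 77 of the members 45.3% do. None of these 4 windows holds a TATA box (TATAAA) or an AP-1 motif (TGANTCA, where N is any base) on either strand. Those motifs stand in 12.4% and 6.75% of all windows and in 15.1% and 10.5% of the member windows. A match describes the letters of a window and shows no bound factor.

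Among the secreted metalloproteinases, Mmp28 (chr11:83440768-83463040) had RNA levels of 2.68, 2.38 and 3.41 CPM in shControl A, B and C and 13.1, 15.6 and 18.3 CPM in shElp3 A, B and C. Its footprints were 8.82, 1.89 and 4.37 CPM in shControl and 16.6, 14.2 and 17.4 CPM in shElp3. The groups did not overlap in either fraction, and shControl A was the highest control in RPF. The RNA rise was 5.53-fold (log2 2.47, SE 0.28, edgeR adjusted p = 0.0172), and the RPF log2 fold change was 1.71 (SE 0.46, adjusted p = 0.0780). Mmp2, gelatinase A, which degrades type IV collagen, had 4.62, 1.99 and 3.92 RPF CPM in shControl and 11.5, 14.6 and 9.01 in shElp3. Its footprints rose 3.37-fold (log2 1.75, SE 0.35, edgeR adjusted p = 0.0372). In RNA, Mmp2 (chr8:92827290-92853421) was 5.37, 3.94 and 5.26 CPM in shControl and 7.38, 9.98 and 8.52 in shElp3. Those groups did not overlap either (log2 0.82, SE 0.27, edgeR adjusted p = 0.254).

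Mmp11, stromelysin-3, was 15.0, 18.1 and 21.0 CPM in shControl RNA and 25.7, 23.6 and 34.8 in shElp3. The RNA groups did not overlap, and the log2 fold change of 0.64 (SE 0.25) was called with the block (edgeR adjusted p = 0.0462, without it 0.360). Mmp19 had 1.34, 0.916 and 0.461 CPM in shControl RNA and 2.28, 1.90 and 2.45 in shElp3, and 2.24, 0.894 and 1.73 against 4.89, 3.71 and 3.22 in RPF. Its log2 fold changes were 1.26 (SE 0.43) and 1.29 (SE 0.40), with edgeR adjusted p of 0.263 and 0.105; the groups did not overlap in either fraction. Mmp9, gelatinase B, had a log2 fold change of 0.68 (SE 0.32) in RNA, where its groups did not overlap, and 0.08 (SE 0.36) in RPF, where they did.

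Of the 3 measured membrane-bound metalloproteinases, 1 was called. Mmp15 (chr8:95352296-95374293) was 7.98, 8.34 and 11.8 CPM in shControl RNA and 25.7, 45.4 and 33.9 in shElp3. Its footprints were 9.10, 3.78 and 6.83 CPM in shControl and 23.1, 18.6 and 18.9 in shElp3. Every shElp3 library lay above every shControl library in both fractions, and Mmp15 is the 1 member called in both. The rise was 3.73-fold in RNA (log2 1.90, SE 0.30, edgeR adjusted p = 0.0394) and 3.10-fold in RPF (log2 1.63, SE 0.31, adjusted p = 0.0349). Mmp14, the membrane protease that activates the Mmp2 precursor, was 92.6, 142 and 165 CPM in shControl RNA and 111, 136 and 150 in shElp3. Its groups overlapped, and the log2 fold change was -0.01 (SE 0.27) in RNA and -0.18 (SE 0.16) in RPF, with edgeR adjusted p of 0.995 and 0.534. Mmp17, which is held at the surface by a lipid anchor, had log2 fold changes of -0.09 (SE 0.30) and -0.46 (SE 0.51).

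**Figure D2:**
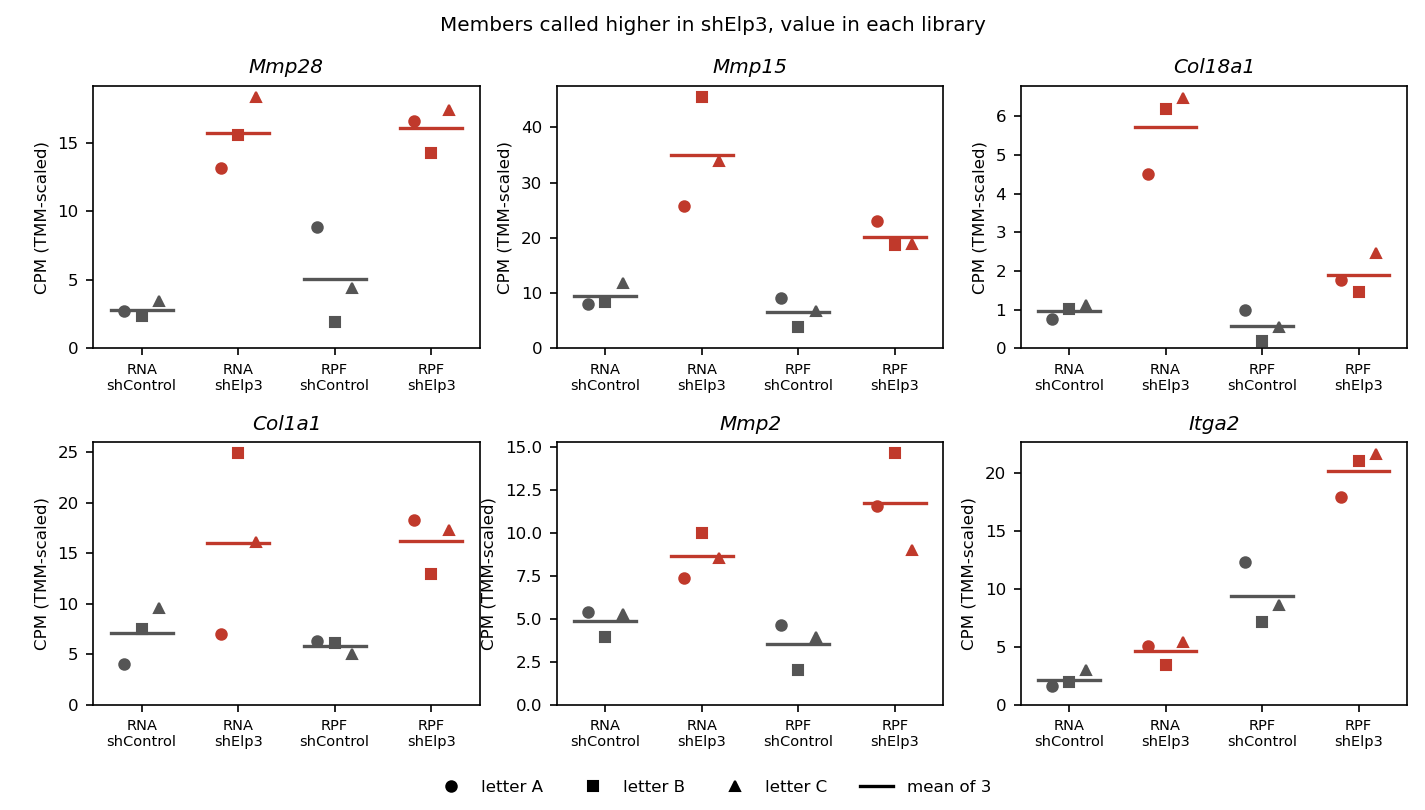
CPM (vertical axis, from 0) of the 6 members called higher in RNA or RPF without a block is plotted by group, with 1 point for each library (circle A, square B, triangle C) and a line at the mean of 3. Only the RNA groups of Col1a1 overlap: shElp3 A, at 7.02 CPM, lies under shControl B and C.

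None of the 3 measured TIMPs was called by edgeR in RNA or RPF with all libraries. Timp3, an inhibitor bound to the matrix, was 723, 624 and 707 CPM in shControl RNA and 698, 923 and 1427 in shElp3. The letters disagreed: the log2 difference was -0.05 for A, 0.56 for B and 1.01 for C, and Timp3 was called higher in RNA once letter A was left out (edgeR adjusted p = 0.00446, and 0.562 with all 6 RNA libraries). With letters B and C only, edgeR called Timp3 higher in RPF as well (log2 0.85). Timp2, which takes part in activating the Mmp2 precursor, was 288, 588 and 561 CPM in shControl RNA and 205, 489 and 492 in shElp3. In RPF it was 734, 446 and 415 CPM against 367, 336 and 404, which did not overlap, fitted at log2 -0.53 (SE 0.23, edgeR adjusted p = 0.212). Timp1 was 8.20, 8.43 and 8.21 CPM in shControl RNA and 6.24, 9.98 and 7.73 in shElp3, so that its shElp3 libraries lay on both sides of the controls.

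Of the fibrillar collagens, 6 of 11 were measured in RNA and 4 in RPF. Col1a1 (chr11:94936224-94953042), a chain of type I collagen, had 6.30, 6.06 and 5.01 RPF CPM in shControl and 18.3, 13.0 and 17.3 in shElp3. These groups were well apart, and the footprints rose 2.80-fold (log2 1.48, SE 0.22, edgeR adjusted p = 0.0203). Col1a1 RNA was 4.03, 7.51 and 9.59 CPM in shControl and 7.02, 25.0 and 16.1 in shElp3, with a log2 fold change of 1.18 (SE 0.51). Its edgeR adjusted p in RNA was 0.413 without the block and 0.0141 with it. Col1a2, the other chain of type I collagen, did not pass the filter, with 0.224, 0.550 and 0.553 CPM in shControl RNA and 0.240, 0 and 0.316 in shElp3. Among fibroblast markers, Dcn and Fap had no count in any library, and of the 7 only Pdgfra and Pdgfrb passed the filter. The summed level of the 7 was 20.2 to 49.3 CPM in shControl RNA and 39.4 to 78.6 in shElp3 RNA. In RPF it was 58.4 to 76.4 and 68.4 to 93.5. The largest value of a single marker in any library was 70.4 CPM, for Pdgfrb, so the sum does not show the markers rising together. The part of other cells in the Col1a1 result was not tested, and in these bulk libraries more cells of a type and more RNA per cell cannot be told apart.

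Type V collagen, which joins type I fibrils, was measured through Col5a1 and Col5a3 among its abundant chains. Col5a1 was 188, 211 and 214 RPF CPM in shControl and 134, 151 and 152 in shElp3, which did not overlap. The log2 difference was -0.49, -0.48 and -0.49 for A, B and C, but the edgeR adjusted p was 0.0705; it was 0.0115 with letters B and C only, and DESeq2 gave 0.0102. Col5a1 RNA was 159, 255 and 276 CPM in shControl and 155, 221 and 189 in shElp3, which overlapped. Col5a3 was 123, 184 and 229 CPM in shControl RNA and 163, 303 and 204 in shElp3, with log2 fold changes of 0.32 (SE 0.33) in RNA and 0.06 (SE 0.14) in RPF.

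The type IV chains of the basement membrane were measured for 3 of 6 genes. Col4a1 RNA was 174, 177 and 181 CPM in shControl and 138, 190 and 143 in shElp3, and its footprints were 222, 191 and 168 CPM against 153, 144 and 143. The RPF groups did not overlap and the RNA groups did; in RPF the fit gave log2 -0.40 (SE 0.14, edgeR adjusted p = 0.140). Col4a2, the partner chain of Col4a1, was 130, 200 and 208 CPM in shControl RNA and 159, 236 and 195 in shElp3, with log2 fold changes of 0.13 (SE 0.27) in RNA and -0.12 (SE 0.13) in RPF. The annotated 5′ ends of Col4a1 and Col4a2 overlap by 22 bases on opposite strands, and without a stated strand setting reads there cannot be assigned. Col4a5, a chain of another type IV network, was 141, 125 and 116 CPM in shControl RNA and 179, 170 and 175 in shElp3. It was 111, 109 and 90.9 CPM in shControl RPF and 129, 132 and 138 in shElp3. Neither pair of groups overlapped; the log2 fold change was 0.46 (SE 0.20) in RNA and 0.36 (SE 0.13) in RPF. With letters B and C only, Col4a5 was called in both fractions (edgeR adjusted p = 0.0173 and 0.0385), where with all libraries the values were 0.410 and 0.159.

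Col18a1 (chr10:77052178-77166530) had 0.746, 1.01 and 1.11 CPM in shControl RNA, from 10 to 12 counts a library, and 4.50, 6.18 and 6.47 CPM in shElp3, from 52 to 82 counts. Its RNA groups were far apart, and the rise was 5.96-fold (log2 2.58, SE 0.33, edgeR adjusted p = 0.0200). Footprints of Col18a1 were 0.980, 0.199 and 0.547 CPM in shControl, 15 counts in all, and 1.76, 1.44 and 2.47 CPM in shElp3. These did not overlap, with a log2 fold change of 1.77 (SE 0.56) and an edgeR adjusted p of 0.111. In RPF, Col18a1 passed the filter through shElp3 alone, so its footprint groups had to differ. Col15a1, the other multiplexin, had 0.522, 3.39 and 3.23 RNA CPM in shControl and 0.360, 2.02 and 1.26 in shElp3. Its letter A library was the lowest of each group, and the fit gave log2 -1.02 (SE 0.80, edgeR adjusted p = 0.711).

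The fibril-associated and beaded or network collagens held no gene called with all libraries. Col16a1, a fibril-associated collagen, was 19.8, 44.5 and 49.3 CPM in shControl RNA and 30.6, 49.4 and 34.3 in shElp3, which overlapped (log2 0.01, SE 0.38, edgeR adjusted p = 0.996). Col20a1, of the same group, was 8.13, 7.61 and 11.1 CPM against 10.7, 13.2 and 14.0, and only shControl C lay among the shElp3 values (log2 0.50, SE 0.26, edgeR adjusted p = 0.530). Col6a1, a chain of the beaded filaments, was 5.22, 2.93 and 3.41 CPM against 6.78, 6.06 and 3.31, with shElp3 C among the controls (log2 0.48, SE 0.38, edgeR adjusted p = 0.720). Col26a1 was 4.92, 1.28 and 1.20 CPM in shControl RNA and 5.28, 4.63 and 3.79 in shElp3; shControl A alone lay among the shElp3 values (log2 0.87, SE 0.57, edgeR adjusted p = 0.632).

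All 8 measured laminin chains had RNA log2 fold changes above 0, where 48.1% of all genes did. They ran from 0.12 to 1.43, the latter for Lamc3, with a median of 0.59. None was called without the block. Lama5, Lamb1 and Lamc3 were called higher with it, where 5.46% of all genes were, but Lamc3 had passed the filter through shElp3 alone. In RPF, 6 of 7 lay above 0, where 49.1% of all genes did. Their RPF median was 0.33, and none was called with all libraries. Lama5, the alpha chain that joins Lamb2 and Lamc1 in a trimer of many basement membranes, was 210, 429 and 462 CPM in shControl RNA and 444, 638 and 667 in shElp3. Each shElp3 library exceeded the control of its own letter, by log2 1.08, 0.57 and 0.53, although shElp3 A lay between the controls. Its edgeR adjusted p was 0.0347 with the block and 0.533 without it. Lama5 footprints were 508, 429 and 513 CPM in shControl and 646, 607 and 574 in shElp3, which did not overlap (log2 0.33, SE 0.13, edgeR adjusted p = 0.173).

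Lamb2 RNA was 440, 437 and 454 CPM in shControl and 571, 516 and 594 in shElp3, groups that did not overlap, fitted at log2 0.34 (SE 0.22, edgeR adjusted p = 0.623). Its footprints were 734, 690 and 773 CPM against 782, 711 and 826, which overlapped. Lamc1 was 212, 547 and 560 CPM in shControl RNA and 451, 733 and 678 in shElp3, and 766, 858 and 825 against 794, 883 and 906 in RPF. Both fractions overlapped, with log2 fold changes of 0.50 (SE 0.41) and 0.08 (SE 0.12). Lamb1, the beta chain that Lamb2 replaces in some tissues, was 3.73, 5.96 and 5.07 CPM in shControl RNA and 7.14, 10.5 and 10.8 in shElp3, which did not overlap. In RPF Lamb1 was 5.46, 10.3 and 7.74 CPM against 10.9, 13.8 and 14.9, again without overlap. The log2 fold changes were 0.94 (SE 0.31; edgeR adjusted p = 0.0297 with the block and 0.246 without) and 0.74 (SE 0.27, adjusted p = 0.149).

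Lamc3 was 0.596, 0.641 and 0.645 CPM in shControl RNA and 1.86, 1.66 and 1.58 in shElp3. Those groups were apart at a low level. Lamc3 passed the filter through shElp3 alone, so this gap was fixed in advance and its p-value supports nothing. The fit gave log2 1.43 (SE 0.33, edgeR adjusted p = 0.0416 with the block and 0.106 without). Lamb3, a beta chain known from epithelial basement membranes, was 1.42, 0.733 and 1.11 CPM in shControl RNA and 1.86, 2.61 and 2.13 in shElp3. It did not overlap in RNA (log2 0.99, SE 0.37, edgeR adjusted p = 0.319). In RPF the groups of Lamb3 overlapped, and its log2 fold change was 1.23, not called with all libraries. With letters B and C only, Lamb3 was called higher by edgeR in both fractions (log2 1.34 in RNA and 1.69 in RPF). Lama4, an alpha chain of vessel and mesenchymal basement membranes, was 130, 183 and 199 CPM in shControl RNA and 174, 171 and 213 in shElp3, which overlapped (log2 0.12, SE 0.25, edgeR adjusted p = 0.914).

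Integrin alpha chains are taken by ligand. The collagen receptor chain Itga2 (chr13:114833081-114932100), which pairs with Itgb1, had 12.3, 7.15 and 8.56 RPF CPM in shControl and 17.9, 21.0 and 21.7 in shElp3. Its RNA was 1.57, 1.92 and 2.95 CPM in shControl and 5.04, 3.45 and 5.44 in shElp3. The groups did not overlap in either fraction. Its footprints rose 2.18-fold (log2 1.12, SE 0.23, edgeR adjusted p = 0.0405), and its RNA log2 fold change was 1.12 (SE 0.36; adjusted p = 0.0387 with the block and 0.239 without). Itga1, another collagen receptor chain of this pairing, was 20.9, 30.2 and 30.8 CPM in shControl RNA and 30.2, 28.6 and 39.4 in shElp3, which overlapped (log2 0.26, SE 0.25). Itga10, the third measured collagen receptor chain, had 0.0746, 0.458 and 1.01 RNA CPM in shControl and 0.960, 0.951 and 1.03 in shElp3, from 1 to 16 counts a library; shControl C lay among the shElp3 values (log2 0.96, SE 0.69, edgeR adjusted p = 0.676).

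The laminin receptor chain Itga6 was 462, 614 and 538 CPM in shControl RNA and 858, 713 and 1208 in shElp3. In RPF it was 663, 653 and 571 CPM against 885, 801 and 1400. Its groups did not overlap in either fraction, and shElp3 C was the highest library in both. The log2 fold changes were 0.78 (SE 0.29) and 0.71 (SE 0.22), with edgeR adjusted p of 0.319 (0.0506 with the block) and 0.106. Without letter A they were 0.74 and 0.85, called in both fractions (edgeR adjusted p = 0.0141 and 0.0155). Itga7, the other measured laminin receptor chain, had 1.04, 0.733 and 0.830 RNA CPM in shControl and 1.62, 2.38 and 2.29 in shElp3. These did not overlap (log2 1.24, SE 0.35, edgeR adjusted p = 0.188), but Itga7 passed the filter through shElp3 alone, so they had to differ.

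Itga8, which pairs with Itgb1 and binds nephronectin, was 2.09, 1.65 and 2.03 CPM in shControl RNA and 5.34, 4.75 and 4.34 in shElp3. In RPF it had 2.38, 0.397 and 1.55 CPM against 4.39, 4.53 and 4.61. The groups did not overlap in either fraction. In RNA the fit gave log2 1.32 (SE 0.28; edgeR adjusted p = 0.0162 with the block and 0.0932 without). Itga2b, known from platelets, was 30.9, 12.6 and 17.0 CPM in shControl RNA and 40.9, 38.3 and 24.6 in shElp3; shControl A lay among the shElp3 values. It was called in RNA with the block (log2 0.83, edgeR adjusted p = 0.0325, and 0.484 without it). Itga4, a receptor chain for fibronectin and vascular cell adhesion molecule, was 75.2, 221 and 209 CPM in shControl RNA and 119, 177 and 252 in shElp3. Itga9, which binds tenascin, was 55.2, 95.7 and 119 CPM against 88.0, 112 and 125. Both overlapped, with the letter A library lowest in each group, and the log2 fold changes were 0.12 (SE 0.46) and 0.27 (SE 0.32).

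The integrin beta chains had a median RNA log2 fold change of 0.16 over 6 genes. Itgb1, the beta chain shared by most collagen and laminin receptors, was 1546, 1171 and 1033 CPM in shControl RNA and 1193, 1067 and 1224 in shElp3. Its footprints were 2641, 2406 and 2407 CPM in shControl and 2011, 2155 and 2821 in shElp3. Both overlapped, with log2 fold changes of -0.11 (SE 0.27) and -0.09 (SE 0.16). Itgb5, which pairs with Itgav in a vitronectin receptor, was 98.6, 102 and 103 RPF CPM in shControl and 75.1, 74.2 and 91.0 in shElp3. Those groups did not overlap (log2 -0.34, SE 0.14, edgeR adjusted p = 0.189), whereas in RNA Itgb5 was 146, 187 and 240 CPM against 190, 207 and 229.

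Itgb3, named here after its values were seen, was the 1 member of the 56 tested in RNA whose 3 shElp3 libraries all lay below the controls. It was 129, 100 and 110 CPM in shControl RNA and 68.9, 88.9 and 78.6 in shElp3, fitted at log2 -0.52 (SE 0.22, edgeR adjusted p = 0.387). In RPF it was 207, 77.6 and 95.3 CPM against 68.0, 69.6 and 59.5, and shControl A alone stood far above the rest (log2 -0.94, SE 0.34, edgeR adjusted p = 0.153). With letters B and C only, the 2 values were -0.33 and -0.42.

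**Figure D3:**
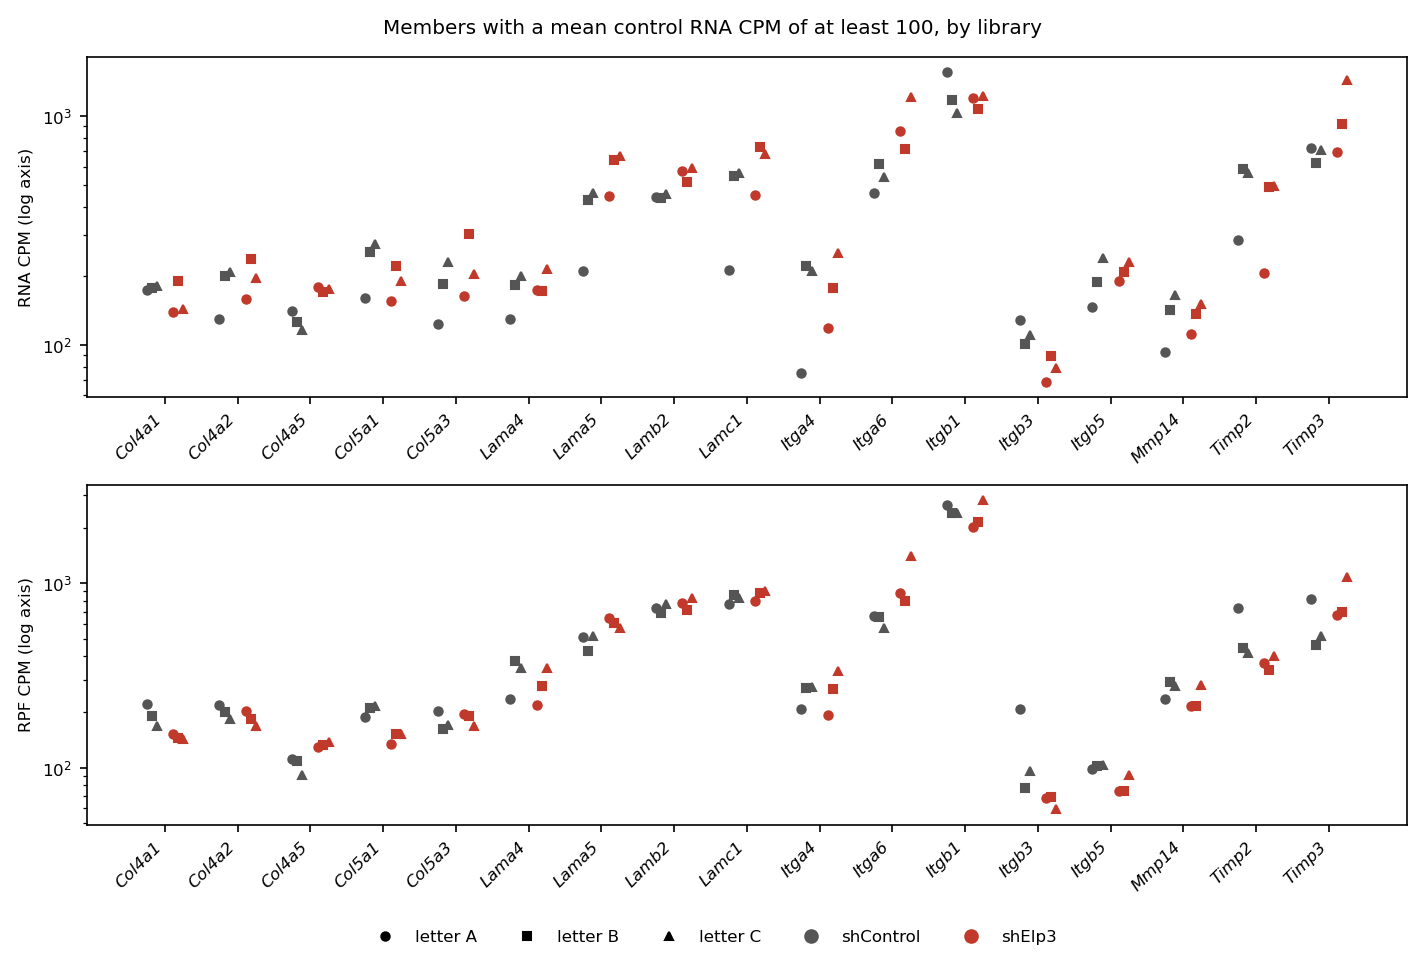
CPM on a log axis is plotted for the 17 members with a mean control RNA level of at least 100 CPM, in RNA (top) and RPF (bottom), 1 point for each library (grey shControl, red shElp3; circle A, square B, triangle C). Itga6 and Col4a5 have shElp3 above shControl without overlap in both panels, Itgb3 lies below without overlap in both, and heights of different genes cannot be compared since CPM is not divided by length.

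In footprints as a whole, 4 of 46 members rose (Col1a1, Itga2, Mmp2 and Mmp15) and none fell, where 1.77% of 11343 genes were called higher and 3.06% lower by edgeR. At an unadjusted p under 0.05, edgeR and DESeq2 each placed 12 members higher and 5 lower, 17 of 46, where 23.1% and 23.5% of all genes passed in either direction. The 5 lower ones, Col4a1, Col5a1, Itgb3, Itgb5 and Timp2, were also those with no overlap between groups. With letters B and C only, 13 were called higher and 1, Col5a1, lower, against 9.41% and 12.2% of all genes. The groups did not overlap upward for 13 of 46 members and downward for 5, which held for 15.4% and 15.3% of all genes. Col18a1, among the 13, had passed the filter through shElp3 alone. The median RPF log2 fold change of the members was 0.09, and -0.01 over all genes. By letter the median difference was -0.05 for A, 0.18 for B and 0.19 for C.

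Leaving out single libraries ended most calls. Without any 1 of the RNA libraries other than shControl A, no member and no gene of the table was called in RNA by edgeR. In those 5 fits, 7 members (of 57, without shElp3 C) to 16 (of 57, without shElp3 A) had an unadjusted p under 0.05, and 7.63% to 11% of all genes did. Without shControl A, 4 members were called higher and 540 genes in all, where 140 were called with all 6. Over all alternatives the adjusted p was between 1.01e-11 and 0.150 for Mmp28, between 2.81e-07 and 0.152 for Col18a1 and between 2.85e-06 and 0.219 for Mmp15. Their log2 fold changes kept to 2.36 to 2.63, 2.41 to 2.72 and 1.67 to 2.11. In RPF no member was called without any 1 library other than shControl A, while fits without shControl B or C still called 52 and 59 genes. Without shControl A, 13 of 47 members were called higher and 1 lower, against 10.7% and 14% of all genes. The adjusted p of the 4 members called in RPF reached 0.123 for Col1a1, 0.179 for Itga2, 0.174 for Mmp2 and 0.156 for Mmp15.

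Translational efficiency asks whether footprints changed by another factor than RNA, tested as the interaction of fraction and hairpin over all 12 libraries. No member among 45 and no gene among 11238 was called by edgeR or DESeq2 with all 12 libraries (0% higher and 0% lower). Once letter A was left out, edgeR called 2 genes, and neither was a member. At an unadjusted p under 0.05, edgeR gave 62 genes and DESeq2 81, with 0 members in either. Those fits did not pair the RNA and RPF library of a culture. With the culture as a block, edgeR gave 184 genes, or 1.64%, and 2 of 45 members. With the letter as a block it gave 179 genes, or 1.59%, and 1 member. Neither of these block fits called a gene after adjustment. The median log2 change in efficiency was -0.26 over the members and -0.03 over all genes. Below 0 lay 38 members, or 84.4%, and 54.2% of all genes. This tilt was uneven between letters: the median member difference was -0.51 for A, with 37 of 45 below 0, -0.23 for B, with 33 below 0, and -0.02 for C, with 23 below 0. The largest values were 0.87 (SE 0.45) for Mmp2, and -0.86 (SE 0.65) for Col18a1 and -0.82 (SE 0.58) for Mmp28. The standard errors of the members, in the fit without a block, ran from 0.22 to 0.88, which is of the size of these values.

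**Figure D4:**
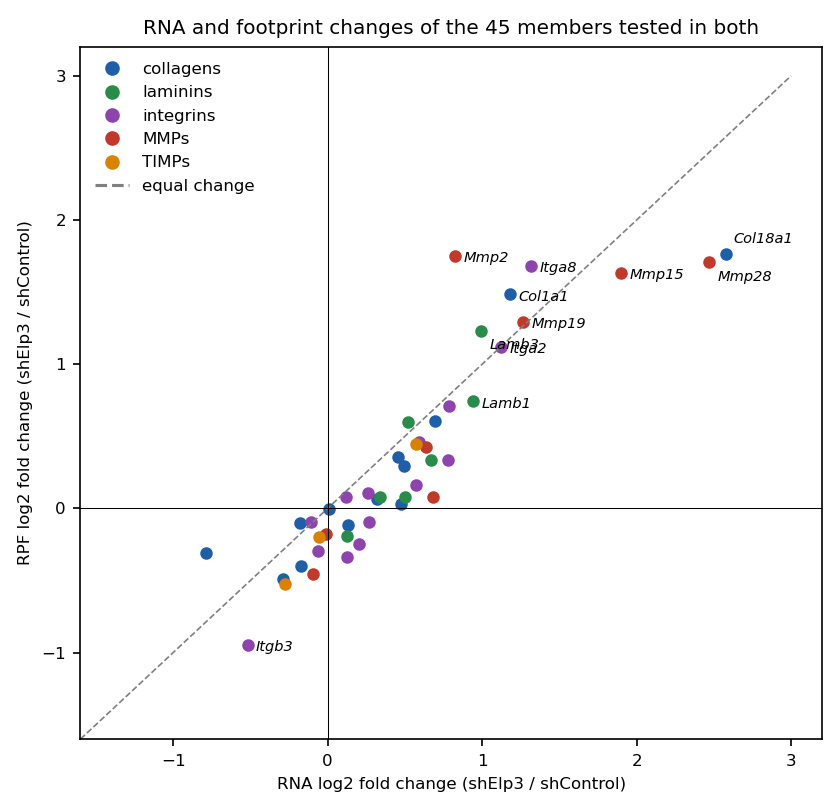
The RPF log2 fold change (vertical) is plotted against the RNA log2 fold change (horizontal) for the 45 members tested in both, coloured by family, with a dashed line where both are equal. Of these members 38 have a change in translational efficiency below 0, while Mmp2 lies farthest above the line with 0.82 in RNA and 1.75 in RPF.

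How many footprints a member carried for its RNA, relative to other genes, was compared within the 3 shControl cultures. Of 37 members tested, 9 had more footprints than their RNA level (Itga1, Itga2, Itga5, Itgb1, Lama4, Lamb2, Mmp9, Mmp14 and Timp1) and 1, Col20a1, had fewer. Over 10583 genes, 8.35% were called higher and 14.7% lower. With the culture as a block, 10 were higher and 3 lower, against 15.2% and 20.1% of genes: Itga5 lost its call, Col6a1 and Lamb1 were added above, and Itga2b and Itgb5 below. The median log2 ratio was 0.28 for the members and -0.05 for all genes. By family it was 0.83 for 5 laminins, 0.63 for 12 integrins, 0.26 for 3 TIMPs, 0.01 for 7 metalloproteinases and -0.04 for 10 collagens.

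Itga2 had the highest ratio, with log2 values of 2.79, 1.78 and 1.50 in cultures A, B and C and a fitted value of 2.22 (SE 0.37, edgeR adjusted p = 0.00788). For Itgb1 the 3 cultures gave 0.95, 1.18 and 1.34, fitted as 1.10 (SE 0.29, edgeR adjusted p = 0.0303). Lamb2 gave 0.91, 0.80 and 0.88, and Mmp14 gave 1.52, 1.17 and 0.87, so that the ratio lay above 0 in each culture. Timp1 gave 1.53, 1.28 and 1.32 (fitted 1.40, SE 0.24, edgeR adjusted p = 0.00829). Col20a1, a fibril-associated collagen, gave -0.63, -1.98 and -2.33 (fitted -1.76, SE 0.47, edgeR adjusted p = 0.0340). Without culture A, 14 of 40 members were higher and 9 lower, where 33.5% and 35.7% of all genes were; without B or without C no member was called, and 31 and 132 genes were. The ratio also depends on how footprints were counted and on untranslated regions, which were not analysed here.

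**Figure D5:**
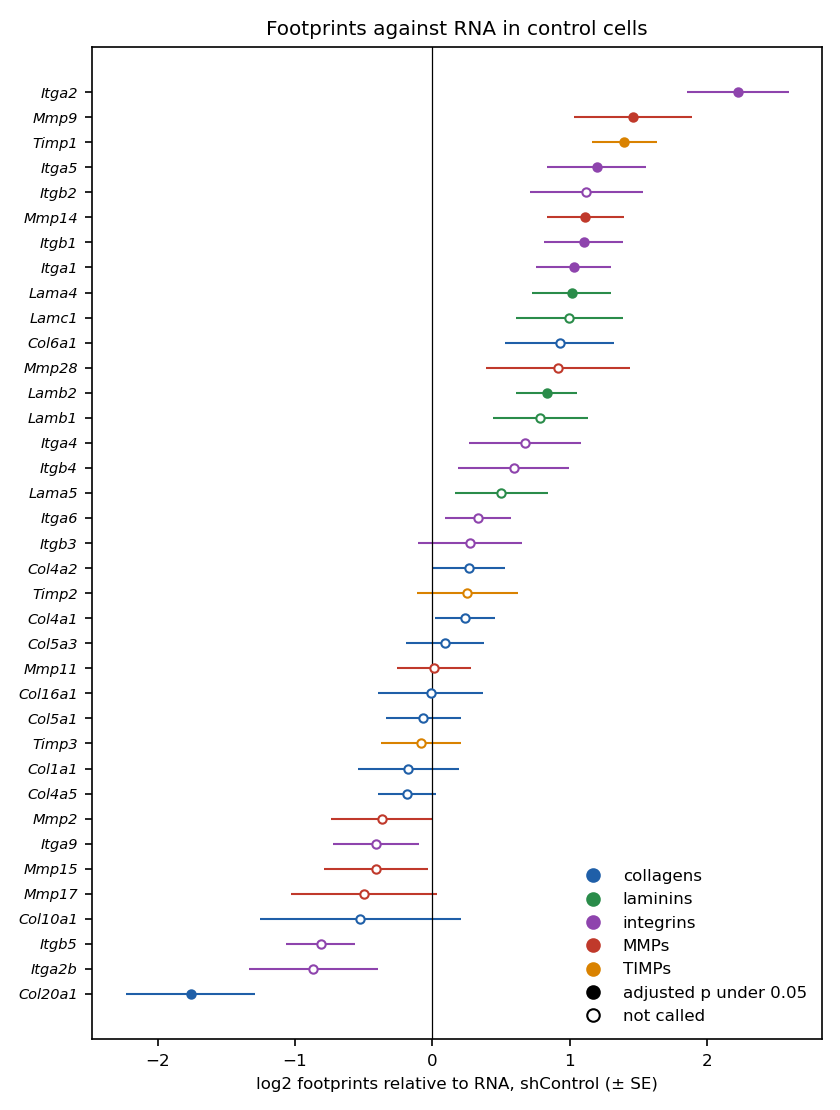
The log2 of footprints relative to RNA in shControl (horizontal axis; bars are the standard error) is plotted for the 37 members tested, coloured by family, with filled points at an edgeR adjusted p under 0.05. Itga2 is highest at 2.22 and Col20a1 lowest at -1.76.

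Genes that work with these proteins were counted from 4 lists. In RNA no gene was called without a block among 23 measured genes of collagen folding, modification and crosslinking, 18 other matrix glycoproteins and proteoglycans, 22 genes of the integrin adhesion machinery, and 16 other matrix proteases and regulators. The adhesion list includes Itgav, an integrin alpha chain that is not a member here, and membrane proteins such as Cd47. The median log2 fold changes of the 4 lists were 0.03, 0.03, -0.05 and 0.01. With the block, the first list had 2 higher (Adamts14, a procollagen processing protease, and Loxl4, a crosslinking enzyme) and 1 lower (Colgalt1, which glycosylates collagen). The second had Ltbp3 and Postn higher and Fbln1 and Tgfbi lower, the third Tns1 higher, and the protease list Adam19 higher and Adamts4 lower. These block calls are named after their values were seen, and 5.46% of all genes were called higher and 6.75% lower in that fit. In RPF, Colgalt1 fell, from 322, 176 and 161 CPM in shControl to 86.9, 83.6 and 94.7 in shElp3 (log2 -1.31, edgeR adjusted p = 0.0382). Fbln1, the matrix glycoprotein fibulin-1, fell as well, from 871, 539 and 500 CPM to 211, 269 and 272 (log2 -1.34, edgeR adjusted p = 0.0280). Those groups did not overlap, and shControl A was the highest control for both. The median change in translational efficiency was -0.25, -0.17 and -0.20 for the first list, the second and the proteases, and 0.01 for the adhesion machinery. Over all genes it was -0.03, and no gene of the 4 lists was called. With letters B and C only, these medians were -0.20, -0.05, -0.10 and 0.04, against -0.02 for all genes.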

How the data were processed

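Counts per gene for 12 libraries were deposited by the authors in 1 table; per the submitters' processing notes, the tools were bcl2fastq, Bowtie, TopHat2 2.1.1 and HTSeq with the mm10 build, and for annotation, counted feature and strand the sources used here give nothing. Every column matched 1 sample (0 unmatched). The members and gene lists were chosen with earlier results of these data known. Counts were tested in R 4.3.3 with edgeR 4.0.16 (quasi-likelihood, trimmed mean of M values, filterByExpr with a minimum count of 10, Benjamini-Hochberg over all genes tested, threshold 0.05) and, as an alternative, DESeq2 1.42.0. Fits covered the 6 RNA, the 6 RPF, all 12 (interaction) and the 6 shControl libraries. Log2 differences by letter used CPM plus 0.5. Members chosen to be given by library, 37 in all and some of them in RNA only, were those called in RNA, RPF or efficiency, those called with the block in RNA or efficiency or with letters B and C only in at least 2 of the 3, and the 2 with the highest RNA level in each role group. Col1a2, Itga10, Itgb3 and Timp1 are also given by library, although this rule did not choose them. Genes of other lists are named where called. Across genes, deviations of same-lettered shControl and shElp3 libraries correlated at 0.828, 0.474 and 0.621 in RNA and 0.805, 0.509 and 0.537 in efficiency, so block values are given for these, although B and C correlated as highly across letters (0.727 and 0.615 in RNA, 0.578 and 0.635 in efficiency). The block in the shControl comparison is the letter that the RNA and RPF titles share, taken here as 1 culture. Alternatives were other size factors, DESeq2, no or a stricter filter, the block, letters B and C only and each library left out. Tested on simulated data, 4-fold changes were recovered for 52% of genes in RNA (12144 genes), 88% in RPF (11247) and 43% in efficiency (11116), and 2-fold changes for 2%, 52% and 2%. In the shControl comparison (10483 genes) these were 73% and 2%. The simulated counts were drawn independently for each gene and library. They held no shift shared by letter A libraries and no link between RNA and RPF of a culture, so the real fits may recover other shares. Library depth limits members of a few CPM.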

Additional observations from a re-analysis of the deposited data

How the results depend on the processing

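With the replicate block, 11 members were called higher in RNA in place of 3; with letters B and C only, 18, and leaving out 1 library gave 0 to 4. In RPF the 4 higher calls became 7 of 46 with DESeq2, where 4.65% of all genes were called, and 13 with letters B and C only (9.41%). With 1 library left out they were 0 to 13. The 0 lower calls became 1 with DESeq2 (6.88% of all genes) and 1 with letters B and C only (12.2%), and 0 to 1 with 1 library left out. For footprints against RNA in shControl, letters B and C only is the same fit as culture A left out. In that fit the 9 higher calls became 14 of 40, where 33.5% of all genes were called higher and 35.7% lower. Without culture B or without C there were 0 higher calls. The 1 lower call became 2 of 37 with DESeq2, where 17.8% of all genes were called lower. It became 4 of 80 without a count filter (11.5%), 3 of 37 with the replicate block (20.1%) and 9 of 40 with letters B and C only (35.7%). Without culture B or without C there were 0 lower calls. The cause was not tested. In RPF the letters did not pair the libraries (correlations 0.353, -0.112 and 0.230), and control B correlated best with shElp3 C. There the replicate block gave 5 higher calls in place of 4, where 1.96% of all genes were called higher and 3.91% lower. The block changed no member's call in efficiency, and no alternative called a member there. No value changed sign where it was called: over the alternatives of single members, 204 values kept their side of the threshold, 56 lost a call and 28 gained one. In the shControl comparison, these totals count the fit without letter A under both of its names. Members at a few CPM, among them Col18a1, Lamc3, Itga7 and Mmp19, rest on few counts, and intervals for them were not computed.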
